A study of Mus musculus with 10 samples.

Results

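Liver and white adipose tissue of adult female C57BL/6 mice, an inbred laboratory strain, were compared directly. The comparison took in every probe set that was no control and read above its array's noise in liver, in white adipose or in both. A probe set is a group of short oligonucleotides on the array that measures one transcript. Of 13057 probe sets, 4139 met that rule (2733 of 6523 on chip A and 1406 of 6534 on chip B), and those with a gene name stood for 2673 of 6123 genes. The noise bound of an array is the size of its 1st percentile, which lies below 0, and it was 295.3 for liver and 390.1 for white adipose on chip A, and 791.9 and 918.3 on chip B. The probe set of Ttc17 was just inside the rule with 762.0 in liver and 918.9 in white adipose on chip B, and that of Tac2 just outside it with values of 295.3 and 384.8 on chip A.

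The series holds 5 tissues (pancreas, muscle, liver, hypothalamus and white adipose) on 1 array of each of 2 chips, so this comparison uses 4 of 10 arrays and the other tissues serve as background. All samples were total RNA taken with Trizol, and 10 µg of it was made into biotin-labelled cRNA. No treatment is given, the labels name no fat depot, and they do not say how many animals gave each RNA or whether RNA was pooled. The title of the adipose samples names a preconfluent state, while their source label names white adipose tissue, which was taken as the group. With 1 array per tissue and chip there is no replicate check of any difference, no test was made, and no p-value is given.

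Liver and white adipose both make fatty acids from sugar and join them to glycerol as triglyceride. The liver sends triglyceride and cholesterol into the blood in lipoproteins, burns fatty acids, and also makes bile acids, urea and most plasma proteins. White adipocytes keep triglyceride in a large droplet, release fatty acids from it by lipolysis between meals, take fatty acids from lipoproteins through lipoprotein lipase, and secrete hormones such as leptin and adiponectin. In whole tissue, fewer cells of a type and less RNA per cell cannot be told apart.

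A probe set was counted as higher in one tissue where it read at least 4 times the other, with a value under the noise bound raised to that bound and the fold then written as "at least". It was counted as shared where both values were above noise and within 2-fold. By these rules 277 probe sets (6.69%) were higher in liver, 246 (5.94%) higher in white adipose and 1855 (44.8%) shared. On chip A these were 164 (6%), 160 (5.85%) and 1281 (46.9%) of its members, and on chip B 113 (8.04%), 86 (6.12%) and 574 (40.8%). Among genes, 184 (6.88%) were higher in liver, 160 (5.99%) higher in white adipose and 1244 (46.5%) shared. Only 61 of the liver genes and 60 of the adipose genes were above noise in both tissues, so most folds are lower limits. The median log2 ratio of liver over white adipose was -0.23 over the 2673 genes, and -0.20 over the 1638 above noise in both, with quartiles of -0.70 and 0.30. At the threshold, Vnn1 was just inside with at least 4.01-fold higher in liver and Bhmt2 just outside with at least 3.97-fold. On the adipose side Srgn was inside with at least 4.01-fold and Vamp3 outside at 3.99-fold.

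**Figure D1:**
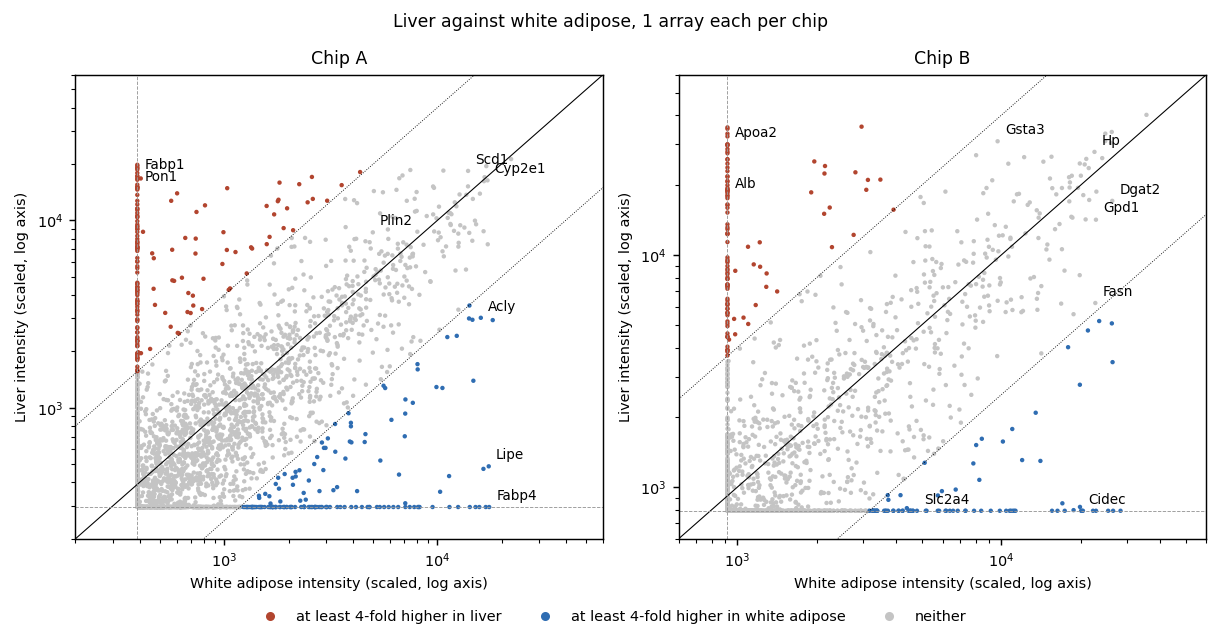
Each point is a probe set above noise in liver, white adipose or both, with its scaled intensity in white adipose (x axis) and in liver (y axis) on log axes, chip A on the left and chip B on the right. The solid line marks equal values, dotted lines 4-fold differences and dashed lines the noise bounds. Values under an array's noise bound are drawn at the bound. Of 4139 probe sets, 277 lie at least 4-fold toward liver, 246 at least 4-fold toward white adipose and 1855 are above noise in both and within 2-fold.

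The level at which the arrays were set against each other moved the split between the tissues. Scaled on the 75th percentile, 336 probe sets were higher in liver and 195 in white adipose, so that liver held 63.3% of the differing probe sets against 53.0% under the trimmed mean. Scaled on the bacterial spike controls, the counts were 246 and 317, and the liver share 43.7%. The median log2 ratio of probe sets above noise in both tissues was -0.18, 0.065 and -0.42 under the trimmed mean, 75th percentile and spike scaling. A difference of about that size between the tissues has no fixed direction here.

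Probe sets printed on both chips gave a repeat of the hybridisation. Of 76 such probe sets, 15 were above noise on all 4 arrays, and their log2 ratios of liver over white adipose differed between chips by a median of 0.20 and at most 0.62. These were bacterial spike controls, control sets for Gapdh, Pcx and Actb, and sets labelled B2. The repeat therefore did not cover the probe sets used for the genes named here. Chip B gave the ratio further toward liver for all of the 15 except a set labelled B2, where it was lower by 0.16. The effect of this on lists that mix the chips was not tested. Over 182 genes with several probe sets above noise in both tissues, the log2 ratios of one gene spread over a median of 0.33. Among genes higher in liver, 30 had another probe set above noise, of which 19 were also at least 4-fold higher in liver and 0 were so in the opposite direction. On the adipose side these counts were 33, 21 and 0. Control probe sets were not in these counts, and those for Actb, a gene counted as higher in liver, read higher in white adipose. Of 205 genes that the naming rule allows, 60 had other probe sets, and for 22 of them all others were below noise in both tissues, among them Apoh, Apoc2, Hrg and Lgals3. Of the same 205 genes, 51 were read by probe sets with a suffix for a relaxed design, such as one for a family of sequences. Not all of these are marked below, and near relatives may add to their values. The ratio of the 3′ to the 5′ control probe set for Actb was 2.84 and 2.61 in liver on chips A and B, and 1.56 and 1.51 in white adipose. This sign of shorter cRNA in liver runs with the tissue, and its part in the results was not tested.

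Both tissues carried the markers of their labels. Of 14 hepatocyte markers 11 were measured, 8 were above noise and 6 were higher in liver, among them the plasma protein genes Alb (18122 in liver and 183 in white adipose) and Ahsg (17119 in liver and 169 in white adipose). The hepatocyte markers above noise that were not counted as higher in liver were Cyp2e1 and Gsta3. Cyp2e1 was shared, with 16351 in liver and a slightly larger 17182 in white adipose, and Gsta3 was 3.19-fold higher in liver. The hepatocyte markers Hnf4a, Cyp7a1 and Apoa1 were below noise in both tissues. Of 12 measured white adipocyte markers all 12 were above noise and 11 were higher in white adipose, with Car3, a carbonic anhydrase, as the exception (7785 in liver and 14581 in white adipose). Adipoq, the gene of adiponectin, read 16859.6 in white adipose and 119.7 in liver, and Lep, the gene of leptin, 2871 in white adipose and 15.0 in liver. Of 5 measured brown adipocyte markers, Ucp1, Cidea, Elovl3 and Fabp3 were below noise in both tissues and Cox8b, a subunit of cytochrome oxidase, was above it only in white adipose (883 in white adipose and -35.9 in liver). Of 20 measured genes of cell division, 18 were below noise in both tissues, Mki67 and Top2a included, while Cdk1 was above noise only in white adipose (426) and Tk1 only in liver (547).

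The marker genes of the comparison, Cyp2e1, Gsta3 and Scd1, lay on the shared side or near it. Cyp2e1, a cytochrome P450 that oxidises ethanol and ketone bodies, read 16351 in liver and 17182 in white adipose, a ratio of 1.05. Scd1, the desaturase that puts a double bond into stearate, read 18359.6 in liver and 13928 in white adipose, or 1.32-fold higher in liver. Gsta3, a glutathione transferase, read 30946 in liver and 9701 in white adipose, 3.19-fold higher in liver, and passed 4-fold under quantile normalization with a log2 ratio of 2.22. All 3 are thus strong in both tissues, and only Gsta3 lay outside 2-fold.

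By a ratio that depends on the noise bounds, Cyp2e1 led the genes that liver and white adipose held in common against the other tissues. A gene was put in this group where the lower of its 2 values was at least 4 times the highest of pancreas, muscle and hypothalamus, each raised to its noise bound where below it. Of 1638 genes above noise in both tissues, 8 met this rule: Cyp2e1, Hp, B2m, Gstz1, Dgat2, Cat, Scp2 and Plin2. The highest bound was that of pancreas, at 1166 on chip A and 2608 on chip B, so the chip weighs on rank and entry. Gsta3, on chip B, was under the bounds of all 3 other tissues and reached 3.72 times the pancreas bound, outside the rule. The lower value of Cyp2e1 was at least 14.0 times the others, a limit set by the pancreas noise bound and not by a reading. Its own values there were 20.0 in pancreas, 1110.4 in muscle and -123 in hypothalamus. Dgat2, which adds the last fatty acid to make triglyceride, read 17138 in liver and 26386 in white adipose against 2536 in muscle, with pancreas and hypothalamus under their bounds. Plin2, a coat protein of lipid droplets, read 8629 in liver and 4974 in white adipose and was under the bound in all 3 other tissues. Thus 2 of the 8 genes act in triglyceride storage.

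The rest of the 8 act elsewhere. Scp2, a sterol carrier with a part in peroxisomal oxidation, read 13039 in liver and 7819 in white adipose, and Cat, the catalase of peroxisomes, 10897 in liver and 5381 in white adipose. Hp, the plasma protein haptoglobin that binds free haemoglobin, read 27853 in liver and 22593 in white adipose, and Gstz1, an enzyme of tyrosine breakdown, 10259 in liver and 9899 in white adipose. B2m, the light chain of class I antigen-presenting molecules, read 24594 in liver and 20742 in white adipose. At a factor of 2 in place of 4 the group had 38 genes, of which 27 were within 2-fold of each other and 28 had the larger value in liver by any margin, including Rbp4, the plasma carrier of retinol (18567 in liver and 7461 in white adipose).

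**Figure D2:**
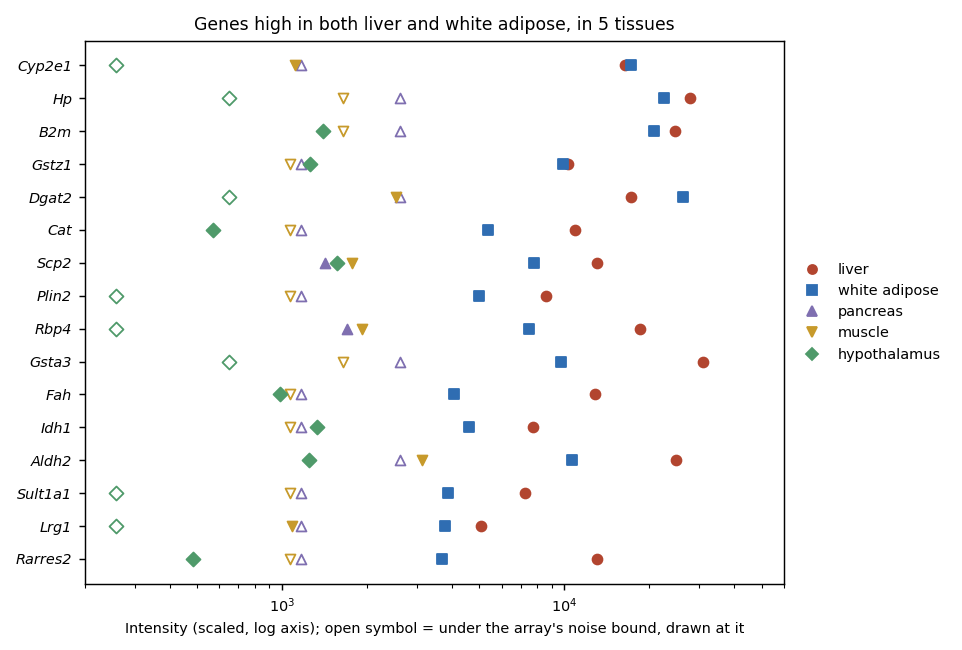
Scaled intensities (log axis) in 5 tissues of the 16 genes with the highest ratio of the lower of liver and white adipose to the other tissues, in that order, of which the first 8 met the 4-fold rule, with values under a noise bound drawn at the bound. For Cyp2e1 the liver and adipose values of 16351 and 17182 stand next to 1110.4 in muscle.

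Promoters of 4 members with different patterns, each with a motif match, are shown here as sequence, from 250 bases before to 50 after the gene's start, from RefSeq on GRCm38.p6 and all on the plus strand: Fabp1 (chr6:71199629-71199928, above noise in liver and not in white adipose), Cyp2e1 (chr7:140763569-140763868, shared), Hmgcs1 (chr13:119690101-119690400, sterol synthesis) and Lep (chr6:29059971-29060270, above noise in white adipose and not in liver). Capitals mark TATAAA in Fabp1 and Cyp2e1, TCACCCCAC (the core of a sterol regulatory element) in Hmgcs1 and TTGCGCAA (the C/EBP palindrome) in Lep.
Fabp1: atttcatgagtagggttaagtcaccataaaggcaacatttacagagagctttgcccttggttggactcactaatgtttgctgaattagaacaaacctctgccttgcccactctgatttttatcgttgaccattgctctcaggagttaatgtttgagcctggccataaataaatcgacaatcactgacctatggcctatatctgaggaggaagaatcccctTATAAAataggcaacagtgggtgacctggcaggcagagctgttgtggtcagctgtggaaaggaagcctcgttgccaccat
Cyp2e1: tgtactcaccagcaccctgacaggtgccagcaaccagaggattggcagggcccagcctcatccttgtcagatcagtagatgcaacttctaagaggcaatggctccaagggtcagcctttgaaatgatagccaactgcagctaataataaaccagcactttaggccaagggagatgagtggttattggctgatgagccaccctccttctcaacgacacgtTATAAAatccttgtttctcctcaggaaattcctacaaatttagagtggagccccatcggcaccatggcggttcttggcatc
Hmgcs1: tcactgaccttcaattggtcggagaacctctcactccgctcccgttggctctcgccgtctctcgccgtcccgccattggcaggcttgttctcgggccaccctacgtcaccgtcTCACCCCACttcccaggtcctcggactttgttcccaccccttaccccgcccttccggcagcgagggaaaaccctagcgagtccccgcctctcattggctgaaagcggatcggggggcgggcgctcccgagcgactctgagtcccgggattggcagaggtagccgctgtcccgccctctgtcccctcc
Lep: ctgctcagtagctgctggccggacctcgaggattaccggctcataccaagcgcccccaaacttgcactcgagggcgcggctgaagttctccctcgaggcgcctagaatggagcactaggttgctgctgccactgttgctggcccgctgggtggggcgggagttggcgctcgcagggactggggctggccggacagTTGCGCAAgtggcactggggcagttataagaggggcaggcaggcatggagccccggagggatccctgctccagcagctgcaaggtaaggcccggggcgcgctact
The TATAAA match began 30 bases before the start of Fabp1 and 31 before that of Cyp2e1, the TTGCGCAA match 55 bases before that of Lep, and the TCACCCCAC match 137 before that of Hmgcs1.

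Motifs were searched as exact letters on both strands. TATAAA was in 29 of 150 promoters of genes higher in liver (19.3%), in 12 of 123 of those higher in white adipose (9.76%), in 10.6% of the 4887 measured genes with a promoter and in 14.2% of all 27025 promoters of the table. CCAAT was in 46.0% of the liver promoters, 35.8% of the adipose promoters and 38.1% of the measured ones. The E box CACGTG was in 7.33%, 5.69% and 10.1%. TTGCGCAA was in 0 liver promoters and in 1 adipose promoter, that of Lep, against 0.409% of measured ones, and TCACCCCAC in 1 liver promoter, that of Hmgcs1, and 0 adipose promoters, against 0.634%. The HNF1 palindrome was in 0 of the measured promoters, and the direct repeat 1 bound by nuclear receptors in 1, which belonged to a gene of neither group. A match is a string of letters in this window and shows no binding.

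Most measured genes of fatty acid synthesis and of its NADPH supply had the larger value in white adipose, 11 against 3 in liver by any margin. Not every step was covered, since Acaca, Acacb, G6pdx and Acss2, among others on the list, were not measured. Of 27 listed genes 16 were measured and 14 above noise, of which 7 were at least 4-fold higher in white adipose, 1 in liver and 3 shared, with a median log2 ratio of -2.09 beside -0.23 over all genes. Slc25a1, the carrier that takes citrate out of mitochondria, read 17227 in white adipose and 7452 in liver (2.31-fold), and passed the threshold under quantile normalization (log2 -2.34). Acly, which splits that citrate to acetyl-CoA, read 15983 in white adipose and 3020.2 in liver, 5.29-fold higher, and a second probe set on chip B gave 10780 in white adipose and a value under noise in liver. Fasn, the fatty acid synthase, read 22759.5 in white adipose and 6220.5 in liver, which at 3.66-fold fell short of the threshold and passed it with spike scaling (log2 -2.21) and quantile normalization (-2.88). On the probe sets used for the comparison the liver values of all 3 genes were above noise, and on the second set for Acly the liver value was not.

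Genes of NADPH supply and of the pentose phosphate pathway ranged from shared to far higher in white adipose. Me1, the malic enzyme, which yields NADPH, read 7076 in white adipose and 1108 in liver (6.39-fold). In the pentose phosphate pathway, Tkt, the transketolase, read 14746 in white adipose and 1394 in liver (10.6-fold), Taldo1, the transaldolase, 3926 in white adipose and 796 in liver (4.93-fold), and Pgd, the phosphogluconate dehydrogenase, 8102 in white adipose and 294 in liver (at least 27.4-fold). Pgls, an earlier enzyme of that pathway, read 841 in liver and 867 in white adipose and was shared, as was Idh1, the cytosolic isocitrate dehydrogenase that also yields NADPH, with 7735 in liver and 4593 in white adipose. Thrsp, a nuclear protein that promotes lipogenesis, read 13527 in white adipose and 2094 in liver (6.46-fold).

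Enzymes that lengthen and desaturate fatty acids went separate ways. Elovl2, which lengthens polyunsaturated fatty acids, read 3574 in liver and 16.1 in white adipose, at least 9.16-fold higher in liver. Elovl6, which lengthens palmitate, read 2366 in white adipose and 765 in liver, 3.09-fold higher in white adipose. While Scd1 was shared, its paralog Scd2 read 2669.8 in white adipose and 27.9 in liver (at least 9.04-fold). Elovl2 was thus under noise in white adipose and Scd2 in liver, while Elovl6 and Scd1 were above noise in both.

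Genes of triglyceride assembly had a median ratio nearer to even than those of fatty acid synthesis, and most still had the larger value in white adipose. Of 16 listed genes 8 were measured and 7 above noise, 3 of them shared, 1 higher in white adipose and 0 in liver, with a median log2 ratio of -0.69. Over all genes 46.5% were shared and 5.99% higher in white adipose, so the shared count is near that background. By any margin, 6 of the 7 had the larger value in white adipose and 1 in liver. Gpd1, which makes the glycerol phosphate backbone from glycolysis, read 22883 in white adipose and 14212 in liver, and Gpam, which adds the first fatty acid, 3398 in white adipose and 2164 in liver, both within 2-fold. Dgat2 was shared as given above (1.54-fold higher in white adipose), though quantile normalization moved its log2 ratio to -2.27. Its counterpart Dgat1, an unrelated enzyme of the same last step, read 3316 in white adipose and 583 in liver, 5.69-fold higher in white adipose. Lpin2, a phosphatidate phosphatase, was above noise only in liver (1049, at least 2.69-fold). Agpat3 (616, at least 2.09-fold) and Gpd2, the mitochondrial glycerol phosphate dehydrogenase (717, at least 2.43-fold), were above noise only in white adipose, and whether these 3 folds reach 4 cannot be read.

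Genes of the lipid droplet and its breakdown were nearly all higher in white adipose. Of 26 listed genes 11 were measured and 10 above noise, 8 of them higher in white adipose, 0 in liver and 1, Plin2, shared, with a median log2 ratio of -3.95. Lipe, hormone-sensitive lipase, read 17410.2 in white adipose and 487 in liver (35.8-fold), and Mgll, which frees the last fatty acid from monoglyceride, 11343 in white adipose and 432 in liver (26.3-fold). Cidec, which helps droplets to fuse and grow, read 20109 in white adipose and 166 in liver (at least 25.4-fold). The liver values of Lipe and Mgll were above the liver noise bound, whereas that of Cidec was below it.

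The remaining droplet genes followed the same direction. Cavin1, a coat protein of caveolae, the membrane pits abundant in adipocytes, read 9488 in white adipose and 271 in liver (at least 32.1-fold), and its relatives Cavin2 (11.7-fold) and Cavin3 (15.0-fold) differed likewise. Adig, adipogenin, read 4700.5 in white adipose and -23.9 in liver (at least 15.9-fold). Bscl2, the gene of seipin at the site of droplet formation, read 4556 in white adipose and 657 in liver (6.94-fold). G0s2, an inhibitor of the adipose triglyceride lipase, read 5344 in white adipose and 1639 in liver, which at 3.26-fold stayed under the threshold and passed it with spike scaling (log2 -2.05).

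Fatty acid uptake and binding showed an exchange of family members. Of 25 listed genes 14 were measured and 12 above noise, 5 of them higher in white adipose, 2 in liver and 3 shared, with a median log2 ratio of -0.75. That median has no fixed direction, since it was 4.20 over plain probe sets and -2.86 on chip B alone. Fabp1, the liver form of the intracellular fatty acid binding proteins, read 17278 in liver and -47.2 in white adipose (at least 44.3-fold), from a probe set designed for a family of sequences, and its second probe set was below noise in both tissues. Fabp4, the adipocyte form, read 17497 in white adipose and 67.8 in liver (at least 59.2-fold), and Fabp5 7899 in white adipose and 486 in liver (at least 9.97-fold). The probe sets of Fabp4 and Fabp5 were of family design too. The intestinal form Fabp2 was not above noise in white adipose and read 598 in liver and -35.2 in white adipose.

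Transport proteins changed places in the same way. Slc27a2, a fatty acid transport protein that also activates very long chains, read 9899.7 in liver and 0 in white adipose (at least 25.4-fold), and Slc27a1 5824 in white adipose and 112 in liver (at least 7.35-fold). Of 32 listed pairs of related genes 15 were measured on both sides and 9 above noise for both members, and 4 of these were at least 4-fold apart in opposite directions: Fabp1 with Fabp4, Fabp1 with Fabp5, Slc27a2 with Slc27a1, and the glucose transporters Slc2a2 with Slc2a4. Fabp1 is in 2 of the 4 pairs. Dbi, which binds acyl-CoA, was shared (18141 in liver and 20491 in white adipose), as was Scp2.

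Of the lipase, its inhibitor and the surface receptors measured, Lpl and Cd36 were higher in white adipose. Lpl, lipoprotein lipase, read 10295 in white adipose and 356 in liver (28.9-fold), while a second probe set for it was below noise in both tissues. Cd36, a fatty acid translocase, read 19888 in white adipose and 2765 in liver (7.19-fold), with a second probe set at 9892 and 1290.1. Angptl4, an inhibitor of Lpl, was shared (696 in liver and 964 in white adipose), and Vldlr, a lipoprotein receptor, was above noise only in white adipose (602, at least 2.04-fold).

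**Figure D3:**
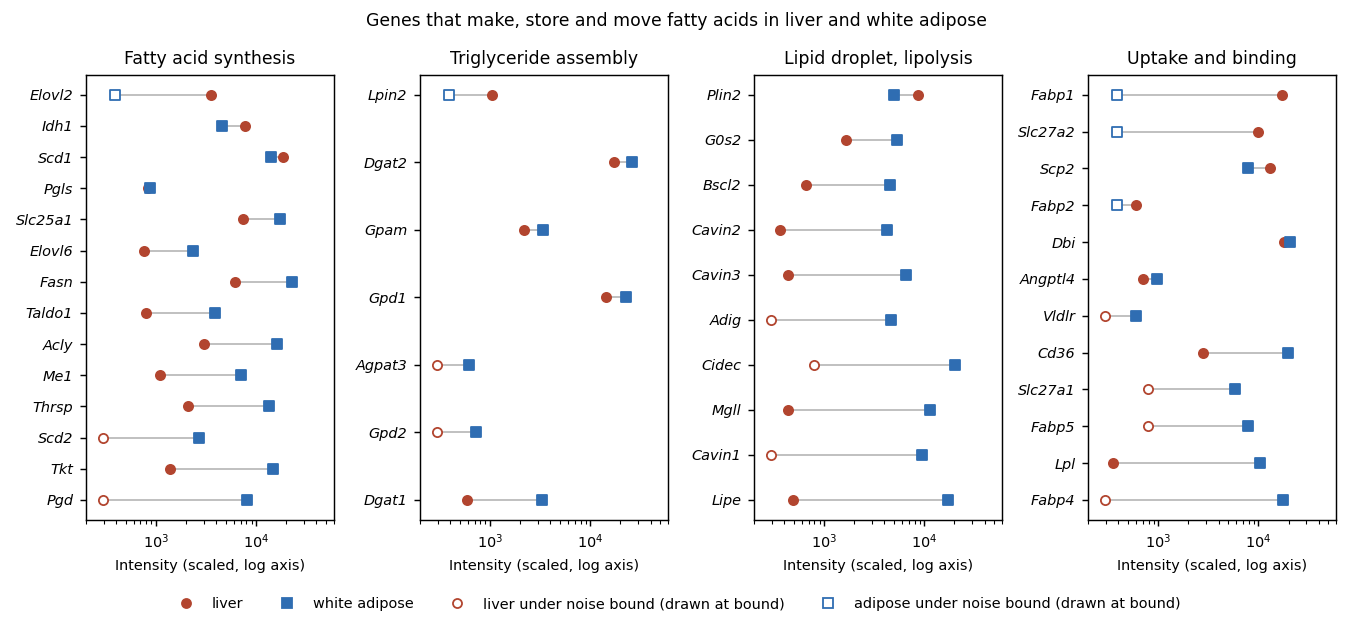
Scaled intensities (log axis) in liver and white adipose for genes of fatty acid synthesis, triglyceride assembly, the lipid droplet, and fatty acid uptake and binding, with values under a noise bound drawn at the bound. Fabp1 and Slc27a2 lie high in liver and at the bound in white adipose, Fabp4 and Cidec the other way round, and Scd1, Gpd1, Dgat2 and Dbi have both values close together.

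Lipoproteins and sterol transport leaned to liver. Of 35 listed genes 23 were measured and 19 above noise, 8 of them higher in liver, 1 in white adipose and 5 shared, with a median log2 ratio of 1.53. Apoa2, an apolipoprotein of HDL, read 30037 in liver and 347 in white adipose (at least 32.7-fold), Apoh, an apolipoprotein that binds phospholipid, 23012 in liver and -111 in white adipose (at least 25.1-fold), and Apom 7586 in liver and 71.3 in white adipose (at least 19.4-fold). Pon1, the paraoxonase carried on HDL, read 14924 in liver and 22.1 in white adipose (at least 38.3-fold), and Lcat, which esterifies cholesterol in plasma, 7426 in liver and 47.2 in white adipose (at least 19.0-fold). Apoc2, the activator of lipoprotein lipase, was above noise in liver only (7166 in liver and 288 in white adipose), whereas Lpl itself was higher in white adipose.

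Not every apolipoprotein followed. Apoc1 read 25332 in liver and 1959 in white adipose (12.9-fold) and Clu, the apolipoprotein also called clusterin, 15597 in liver and 2246 in white adipose (6.95-fold), so both were above noise in fat. Apoe, the ligand for uptake of remnants, was shared (10312 in liver and 11174 in white adipose), and a second probe set on chip B gave 18280.5 and 16188. Pltp, which moves phospholipid between lipoproteins, was the 1 member higher in white adipose, with 1646 in white adipose and 308 in liver (5.34-fold), a call lost under quantile normalization (log2 -1.39). Mttp, which loads lipid onto apolipoprotein B, was above noise only in liver with 762 (at least 1.95-fold). The sterol exporter Abca1, the HDL receptor Scarb1, the remnant receptor Lrp1 and its chaperone Lrpap1 were all within 2-fold.

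Sterol synthesis leaned to liver. Of 25 listed genes 10 were measured and 7 above noise, 3 of them higher in liver, 0 in white adipose and 1 shared, with a median log2 ratio of 1.07, or 0.17 over plain probe sets. Hmgcs1, which makes HMG-CoA, read 9092 in liver and 1897 in white adipose (4.79-fold), though the median over its probe sets gave a log2 ratio of 1.92, under the threshold. Idi1, the isopentenyl diphosphate isomerase, read 2706 in liver and 559.7 in white adipose (4.83-fold), and Ebp, a sterol isomerase, 3884 in liver and 505 in white adipose (at least 4.23-fold), the latter under 4-fold with spike scaling (log2 1.74) and quantile normalization (1.49). Fdft1, which makes squalene, read 4365 in liver and 2082 in white adipose (2.10-fold). Lss, the lanosterol synthase, was shared (735 in liver and 549 in white adipose).

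Fatty acid oxidation leaned to liver, with many of its genes within 2-fold. Of 36 listed genes 21 were measured and 20 above noise, 11 of them shared, 5 higher in liver and 2 in white adipose. Over all genes 46.5% were shared, so the shared count is near that background. By any margin, 17 of the 20 had the larger value in liver and 2 in white adipose. The median log2 ratio was 0.63, beside -0.23 over all genes. The acyl-CoA dehydrogenases Acads (3322 and 3073 in liver and white adipose), Acadm (8256 and 5102), Acadl (1555 and 1293) and Acadvl (3732 and 1881) were within 2-fold. So were Hadh (7067 and 6522) and Ech1 (5023 and 5015), which act later in the cycle. The 11 shared members had ratios of liver over white adipose of up to 1.98-fold.

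The steps that let fatty acids in were unequal. Cpt1a, the liver form of the transferase that admits fatty acids to mitochondria, read 4786 in liver and 569.7 in white adipose (8.40-fold), and Slc25a20, the acylcarnitine carrier that follows it, 2286 in liver and 906 in white adipose (2.52-fold). Cyp4a10, an omega hydroxylase, read 12313 in liver and -32.1 in white adipose (at least 13.4-fold), and Cyp4a14 8981 in liver and -28.1 in white adipose (at least 9.78-fold). For both, a second probe set was below noise in both tissues. Among peroxisomal transporters, Abcd3 read 13017 in liver and 2600.4 in white adipose (5.01-fold), while its relative Abcd2 was above noise only in white adipose (3324 in white adipose and 182 in liver), at least 4.20-fold higher. Abcd2 was under 4-fold with quantile normalization (log2 -1.42) and 75th percentile scaling (-1.78). Crat, carnitine acetyltransferase, read 2869.7 in white adipose and 653 in liver (4.40-fold) and fell to a log2 ratio of -1.90 with 75th percentile scaling and -1.92 with quantile normalization. Its second probe set was above noise only in white adipose, at least 2.91-fold higher. Acat1, the only measured gene of the ketone body list, read 4284 in liver and 2006 in white adipose (2.14-fold).

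Bile acid genes above noise were so in liver and not in white adipose. Of 15 listed genes 7 were measured and 6 above noise, 3 of them higher in liver and 0 in white adipose, with a median log2 ratio of 2.20. Slc10a1, the sodium-driven importer of bile acids, read 19085 in liver and -103 in white adipose (at least 20.8-fold), Baat, which conjugates them, 4945 in liver and 295 in white adipose (at least 5.38-fold), and Abcb4, the exporter of phospholipid into bile, 2379.6 in liver and -41.2 in white adipose (at least 6.10-fold). Of the other tissues, muscle read Abcb4 above noise (1178.6). Quantile normalization took Baat (log2 1.75) and Abcb4 (1.82) under the threshold. Cyp7a1, the rate-limiting enzyme of the classic pathway, was below noise in both tissues.

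**Figure D4:**
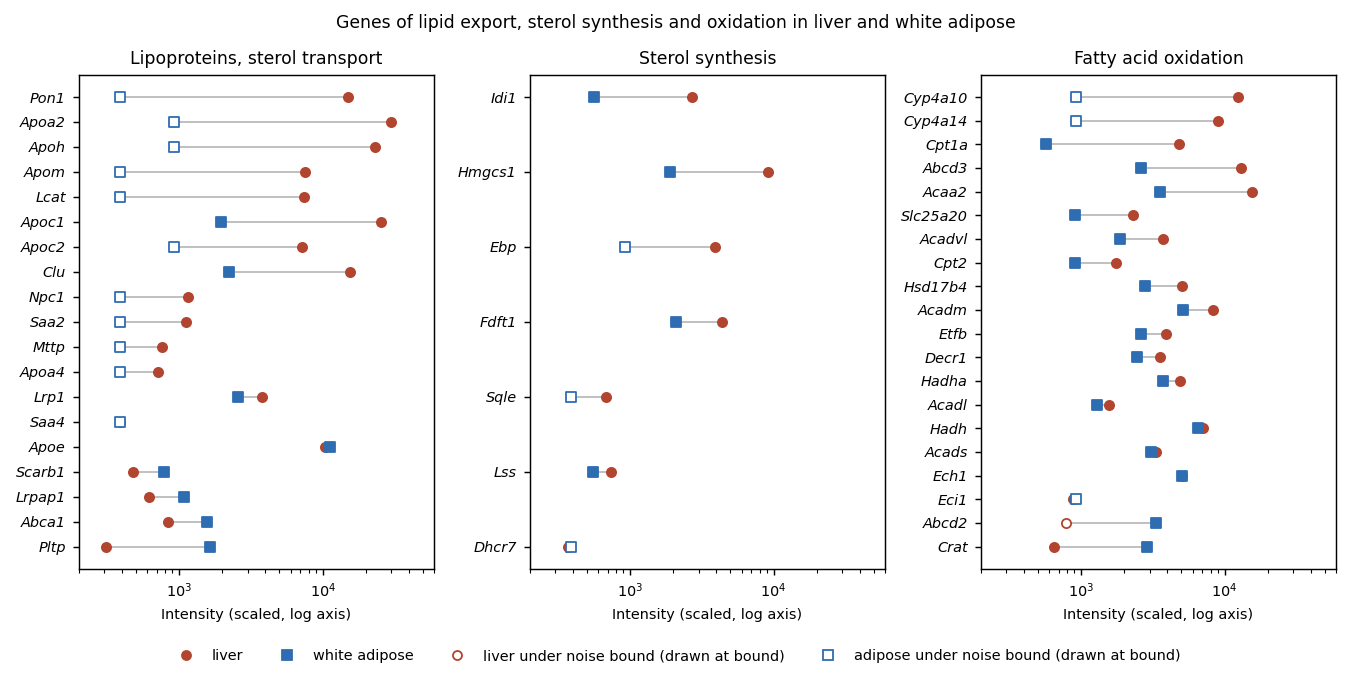
Scaled intensities (log axis) in liver and white adipose for genes of lipoproteins and sterol transport, sterol synthesis and fatty acid oxidation, with values under a noise bound drawn open at the bound and adipose squares covering liver circles where they meet. Apoe, Hadh and Ech1 have both values close together, and Apoa2 and Pon1 lie high in liver with the adipose value at the bound.

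Glucose metabolism split between release in liver and use in white adipose. Of 42 listed genes 26 were measured and 19 above noise, 3 of them higher in liver, 8 in white adipose and 6 shared, with a median log2 ratio of -0.90. The 3 liver genes serve the release of glucose: Fbp1, the fructose bisphosphatase (8669 in liver and -61.3 in white adipose, at least 22.2-fold), G6pc, the glucose 6-phosphatase (1941 in liver and 234 in white adipose, at least 4.97-fold), and Slc2a2, the low-affinity transporter (6376 in liver and 59.3 in white adipose, at least 6.94-fold). In white adipose, Slc2a4, the insulin-responsive transporter, read 4799.6 in white adipose and -38.9 in liver (at least 6.06-fold), with a second probe set at 3645 in white adipose and under noise in liver. Hk2, a hexokinase, read 4460.1 in white adipose and 168 in liver (at least 5.63-fold), and Pkm, the pyruvate kinase of most tissues, 8271 in white adipose and 1076 in liver (7.69-fold).

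Aldoa, the aldolase of most tissues outside liver, read 26292 in white adipose and 5082 in liver (5.17-fold), and Pfkl, a phosphofructokinase, 2098 in white adipose and 388 in liver (5.41-fold). Mitochondrial enzymes of pyruvate were higher in white adipose too. Pdha1, a subunit of pyruvate dehydrogenase, read 1789 in white adipose and 423 in liver (4.23-fold) and Pcx, pyruvate carboxylase, 3825 in white adipose and 935 in liver (4.09-fold), each under 4-fold with 75th percentile scaling (log2 -1.84 and -1.80). Quantile normalization ended the calls of G6pc (log2 1.60), Hk2 (-1.84), Pfkl (-1.77), Slc2a4 (-1.95), Pdha1 (-1.49) and Pcx (-1.86). Gapdh (23722 in liver and 21488 in white adipose), Tpi1 (9562 in liver and 9558 in white adipose) and Ldha (13617 in liver and 16651 in white adipose), which act in both directions of the pathway, were shared.

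The urea cycle and amino acid breakdown were mostly higher in liver. Of 39 listed genes 23 were measured and 22 above noise, 16 of them higher in liver, 1 in white adipose and 2 shared, with a median log2 ratio of 3.14. Ass1, which joins citrulline and aspartate, read 29968 in liver and -569 in white adipose (at least 32.6-fold), Arg1, the arginase, 11579.9 in liver and -41.2 in white adipose (at least 29.7-fold), and Otc, which makes citrulline, 8998 in liver and -78.4 in white adipose (at least 23.1-fold). Bhmt, which passes a methyl group from betaine to homocysteine, read 18966 in liver and -84.4 in white adipose (at least 48.6-fold), and Hpd, of tyrosine breakdown, 15498 in liver and 7.03 in white adipose (at least 39.7-fold). On the adipose side, Asns, asparagine synthetase, read 1185 in white adipose and 25.9 in liver (at least 4.01-fold). That call ended under 75th percentile scaling (log2 -1.77) and quantile normalization (-0.96). Bcat2, which starts the breakdown of branched-chain amino acids, read 6032 in white adipose and 1579 in liver (3.82-fold).

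Plasma proteins held more of the liver genes than any other list. Of 58 listed genes 37 were measured and 36 above noise, 27 of them higher in liver, 0 in white adipose and 2 shared, with a median log2 ratio of 3.43. Plg, plasminogen, read 19790.4 in liver and -123 in white adipose (at least 50.7-fold), Pzp, a protease inhibitor, 19522 in liver and 114 in white adipose, and Hrg, the histidine-rich glycoprotein, 16735 in liver and 405 in white adipose (41.3-fold). White adipose still read 2 plasma protein genes close to liver, Hp as above and Serping1, the inhibitor of complement C1 (14226 in liver and 8111 in white adipose).

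Enzymes of oxidation and conjugation were higher in liver in 18 of 42 genes above noise, higher in white adipose in 1, and shared in 7, of 46 measured and 65 listed, with a median log2 ratio of 1.59. Cyp2d26 read 18663 in liver and 128 in white adipose (at least 47.8-fold), Cyp2c29 12715 in liver and 0 in white adipose (at least 32.6-fold), and Cyp3a11 27946 in liver and -39.2 in white adipose (at least 30.4-fold), all cytochrome P450 genes. The 1 gene higher in white adipose was Gpx3, a secreted glutathione peroxidase, with 16362 in white adipose and -347 in liver (at least 20.7-fold). Mgst3, a membrane-bound glutathione transferase (4020.2 in white adipose and 1158 in liver, 3.47-fold), and Gpx4, which reduces lipid peroxides (13617 in white adipose and 5464 in liver, 2.49-fold), leaned the same way. Cyp2d10 read 5643 in liver and 2616 in white adipose on chip B, but its probe set on chip A gave a log2 ratio of 4.74, so its value is uncertain.

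Among adipokines and other proteins secreted by fat, the classic hormones were above noise in white adipose and not in liver. Of 22 listed genes 15 were measured and 12 above noise, 4 of them higher in white adipose (Adipoq, Retn, Lep and Lpl), 1 in liver and 3 shared, with a median log2 ratio of -0.62. Retn, the gene of resistin, read 15100.2 in white adipose and 165 in liver (at least 51.1-fold), and was above noise in pancreas as well (1379). The 1 liver gene was Igf1, the growth factor of the growth hormone axis, with 8604 in liver and 369.6 in white adipose (at least 9.37-fold). Rarres2, the gene of chemerin, read 12998 in liver and 3689.6 in white adipose, 3.52-fold higher in liver, and passed the threshold with 75th percentile scaling (log2 2.05). Rbp4, often counted as an adipokine, was 2.49-fold higher in liver.

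Transcription regulators of lipid metabolism were largely under the noise. Of 50 listed genes 35 were measured and only 15 above noise, with 2 higher in liver, 2 in white adipose and 3 shared, and a median log2 ratio of -0.32. Pparg, the nuclear receptor that drives adipocyte formation, read 1675 in white adipose and -5.99 in liver (at least 5.67-fold), and Stat5a 1502 in white adipose and 233 in liver (at least 5.09-fold). In liver, Nr1i3, a nuclear receptor for foreign compounds, read 1843 in liver and 11.1 in white adipose (at least 4.72-fold), and Nr5a2, a receptor of bile acid synthesis, 1858 in liver and 238 in white adipose (at least 4.76-fold). All 4 calls ended under quantile normalization (log2 -1.41, -1.28, 1.55 and 1.56). Another probe set for Nr5a2 read 430 in liver (at least 1.10-fold), and the rest were below noise in both tissues. A second probe set for Nr1i3 was at least 3.19-fold higher in liver. The median over probe sets gave log2 ratios of 1.20 for Nr5a2 and 1.96 for Nr1i3, both under the threshold.

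Cebpa, a factor of both adipocytes and hepatocytes, was shared (1320.5 in liver and 2224 in white adipose), as was Cebpb (1491 in liver and 1264 in white adipose). Nr1h4, the bile acid receptor, was above noise only in liver (1452, at least 3.72-fold). Ppara, Hnf4a, Foxa1 and Rxra were below noise in both tissues, so no level can be given for them.

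Growth and insulin signalling genes differed mainly in the growth hormone axis and its binding proteins. Of 35 listed genes 25 were measured and 14 above noise, 2 of them higher in liver, 3 in white adipose and 4 shared, with a median log2 ratio of -0.12. Igf1, as above, and Igfbp2 (3338 in liver and 62.3 in white adipose, at least 8.56-fold) were the liver genes. Ghr, the growth hormone receptor, read 1383 in white adipose and 264 in liver (at least 4.68-fold), with the liver value under noise. Its log2 ratio fell to -1.17 with quantile normalization and to -1.99 with 75th percentile scaling. Igfbp6, which prefers Igf2, read 12018 in white adipose and 1309.5 in liver (9.18-fold), and Igfbp7 14134 in white adipose and 3512 in liver (4.02-fold), the latter under 4-fold with that scaling (log2 -1.77). Insr, Irs1 and Lepr were below noise in both tissues, while Akt1 (902 and 1254) and Akt2 (833 and 955) and the adiponectin receptor Adipor2 (4346 and 3455) were shared.

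Genes of fibroblasts, matrix and smooth muscle were higher in white adipose, and the immune, vessel and epithelial lists held few genes past 4-fold. Of 46 listed genes of fibroblasts and matrix 43 were measured and 34 above noise, 23 of them higher in white adipose and 0 in liver, with a median log2 ratio of -2.54 and summed values of 28932 in liver and 219866 in white adipose. Col4a1, of basement membranes, read 8245 in white adipose and 283 in liver (at least 27.9-fold), Sparc, a matrix-binding protein, 19905 in white adipose and 823 in liver (24.2-fold), and Col6a1 15596 in white adipose and 143 in liver (at least 19.7-fold). Gsn, which cuts actin filaments, read 22893 in white adipose and 112 in liver (at least 28.9-fold) from a probe set designed for a family of sequences. Fn1, a plasma and matrix protein, ran the other way (10921 in liver and 5175 in white adipose, 2.11-fold). Col3a1 read 22306 in white adipose and 536 in liver on chip B, while its probe set on chip A was above noise in white adipose only, at 521.

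Markers of immune and vessel cells differed less than those of fibroblasts and matrix, but macrophage and endothelial genes leaned to white adipose. By any margin, 15 of 17 macrophage genes above noise had the larger value in white adipose and 2 in liver. For endothelial genes above noise it was 6 of 6 in white adipose and 0 in liver. Of 22 measured macrophage genes 17 were above noise, 4 of them shared and 1, Lgals3, higher in white adipose (4625 in white adipose and 51.9 in liver, at least 5.84-fold), with a median log2 ratio of -1.11 and sums of 29514 in liver and 65757 in white adipose. The call of Lgals3 was lost under quantile normalization (log2 -1.91). The defining genes Adgre1, Spi1 and Marco were below noise in both tissues, and Clec4f, a marker of the liver's own macrophages, was above noise only in liver (1337). Endothelial markers were above noise in 6 of 12 measured, with Pecam1 and Tek below noise in both tissues, sums of 6977 and 15470.5, and Cdh5, the cadherin of vessel walls, higher in white adipose (1333 in white adipose and 179.6 in liver, at least 4.51-fold), a call lost with 75th percentile scaling (log2 -1.94) and quantile normalization (-1.12).

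Of 17 measured lymphocyte genes 3 were above noise, with a median log2 ratio of 0.24, the T cell genes Cd3d, Cd3e and Cd3g below noise in both tissues, and sums of 5318 in liver and 12963 in white adipose. Ms4a1, the B cell surface protein CD20, read 2306 in liver and 660.2 in white adipose (3.49-fold) and Ptprc, the surface protein of all white blood cells, 1539.5 in liver and 1303 in white adipose, so the higher adipose sum rests on Ighm. Ighm, the heavy chain of IgM, read 9889 in white adipose and 549 in liver (at least 12.5-fold), and of its other 4 probe sets only 1 was above noise, at 2914 and 465. Smooth muscle genes were above noise in 6 of 7 measured and 3 were higher in white adipose, with Acta2 at 6581 in white adipose and 8.98 in liver (at least 8.31-fold) and sums of 1398 in liver and 13001 in white adipose.

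Of 14 measured genes of mesothelium and epithelium 5 were above noise, 1 higher in each tissue, with sums of 5840.3 and 6390.4. Upk3b, a mesothelial protein, read 2585 in white adipose and -350.2 in liver (at least 8.75-fold), and Wt1, a mesothelial transcription factor, 1721 in white adipose and 210.4 in liver (at least 2.17-fold), while the mesothelial marker Msln was below noise in both tissues. Krt18, the keratin of hepatocytes and other simple epithelia, was higher in liver (1904 in liver and 13.1 in white adipose, at least 4.88-fold), a call lost under quantile normalization (log2 1.57). The part of these cell types in the adipose results was not tested.

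**Figure D5:**
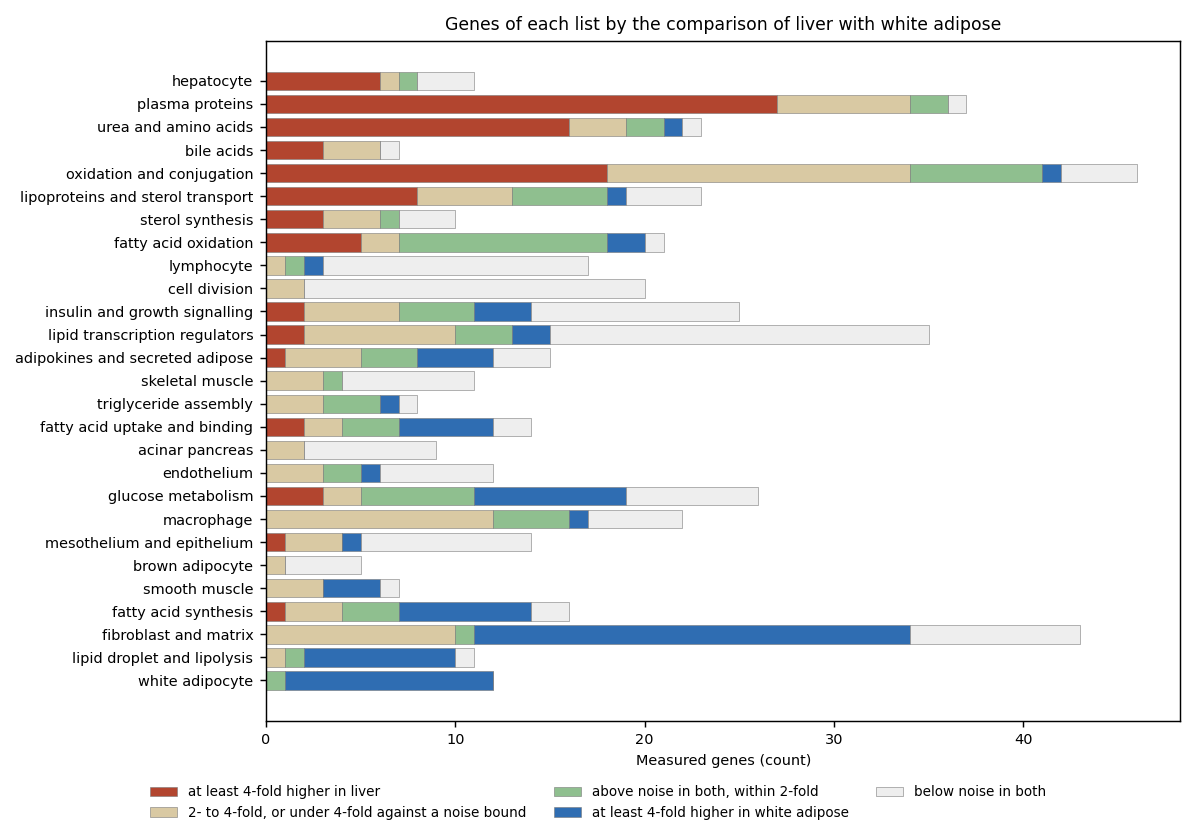
Number of measured genes of each list (x axis) by outcome, with lists ordered by the median log2 ratio of liver over white adipose. Red bars are genes at least 4-fold higher in liver, blue bars at least 4-fold higher in white adipose, green bars shared, tan bars genes above noise that met neither rule, and grey bars genes below noise in both tissues. Plasma proteins have 27 red genes of 37, and fibroblast and matrix 23 blue genes of 43.

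Genes of blood were shared, and a few genes of muscle and pancreas were above noise in white adipose only. Hba-a1, of red blood cells, read 17288 in liver and 21576 in white adipose, and Ckm, the creatine kinase of skeletal muscle, 2395 in liver and 2301 in white adipose. The muscle genes Acta1 (1063 in white adipose and 52.9 in liver, at least 3.60-fold) and Myl1 (618 in white adipose and 85.8 in liver, at least 2.09-fold) were under noise in liver. Of 9 measured pancreatic enzyme genes 7 were below noise in both tissues, and the elastase gene Cela1 (1444 in white adipose and 766 in liver, at least 1.82-fold) and the lipase gene Cel (478 in white adipose and 7.98 in liver, at least 1.62-fold) were above it in white adipose only. The part of neighbouring tissue in the adipose results was not tested.

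The other tissues give the background of these differences. Of the 184 genes higher in liver, 106 were above noise in none of pancreas, muscle and hypothalamus, and 13 had another tissue at least as high as liver. Of the 160 genes higher in white adipose, 40 were above noise in none of these, and 44 had another tissue at least as high, 22 of them muscle, 16 hypothalamus and 13 pancreas, with some genes counted for more than 1 tissue. The noise bounds of pancreas and muscle were higher, at 1166 and 1065 on chip A and 2608 and 1640 on chip B, which hides low values there.

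Some of the largest folds belonged to genes on none of the lists. In white adipose these were Sncg, gamma-synuclein (14185 in white adipose and 197 in liver, at least 48.0-fold), Slc1a5, a transporter of glutamine (12507 in white adipose and 67.8 in liver, at least 42.3-fold), and Lgals1, galectin 1 (28358 in white adipose and 79.8 in liver, at least 35.8-fold). In liver they were Serpina1e, of the antitrypsin family (15061 in liver and 185 in white adipose, at least 38.6-fold), and Akr1c6, an aldo-keto reductase that acts on steroids (14758 in liver and 85.4 in white adipose, at least 37.8-fold). The lists held 91 of the 184 liver genes and 73 of the 160 adipose genes. Serpina1e and Lgals1 were read by probe sets designed for a family of sequences, so near relatives may add to their values. Of 1067 member probe sets without a gene name, 69 were higher in liver and 55 in white adipose.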

How the data were processed

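The deposited values were intensities on a linear scale, and values below 0 show that some signal had been subtracted by the authors. Software and version: not given in the sources used here. Control probe sets were left out, and each array was scaled so that its mean, after trimming 2% at each end, equalled the average of this mean over the 5 arrays of that chip. Chips were treated separately. Between 32.9% and 35.0% of probe sets on chip A and between 16.4% and 16.8% on chip B were above the noise bound in liver or white adipose, and the number of arrays, 1 per tissue and chip, limits the precision.

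Gene symbols came from the platform annotation, brought up to date by gene identifier with a GRCm38.p6 gene table that served for naming alone, and 7525 of 13057 probe sets had a current symbol. For a gene with several probe sets, the one whose mean log2 value over liver and white adipose ranked highest on its chip was used. Promoters came from RefSeq on GRCm38.p6. The steps were run in Python 3.11.15 with pandas 2.3.3 and numpy 2.4.6 and checked on simulated data.

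The members, the 29 gene lists, the 32 pairs and the 7 motifs were chosen with earlier results of these data known. The text may name every gene above noise of the 9 lipid, regulator and signalling lists and of the pairs, the 4 genes of largest fold in each direction of every other list, the 12 of largest fold in each direction, the 12 shared genes of highest mean, and Cyp2e1, Gsta3 and Scd1. Other genes were named after their values were seen: those at a threshold, those held in common against the other tissues, marker and list genes given to describe a group, and the families of the closing section. Alternatives were scaling on the 75th percentile, quantile normalization, spike scaling, other noise bounds, plain probe sets, each chip alone, and the median over a gene's probe sets.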

Additional observations from a re-analysis of the deposited data

How the results depend on the processing

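No paired analysis was possible because each tissue has 1 array per chip and no replicates. Alternatives that keep fewer probe sets change counts by that alone. Higher in liver were 460 probe sets with values floored at the array medians, 22 over plain probe sets (no design suffix), 164 on chip A and 113 on chip B. Higher in white adipose were 540, 19, 160 and 86 in that order, 149 with quantile normalization, and 158 without the suffixes f, g, i and r, a setting chosen after seeing the data. Shared were 3647 with the floor, 256 over plain probe sets and 574 on chip B. Over plain probe sets the median log2 ratio was -1.21 for fatty acid synthesis, 4.20 for fatty acid uptake and binding, 0.17 for sterol synthesis and -2.90 for triglyceride assembly. On chip B alone it was -2.69 for fatty acid synthesis, -2.86 for uptake and binding, -3.19 for the lipid droplet, 3.33 for lipoproteins and 2.08 for sterol synthesis, and on chip A 0.92 for lipoproteins. Quantile normalization gave -3.20 for the lipid droplet. The median for mesothelium and epithelium turned to 0.13 on chip A alone and 0.24 on chip B alone. The cause of these shifts was not tested, beyond the fewer genes kept. The 75th percentile scaling moved none of the 29 list medians by more than 1.5-fold, and of 358 named and listed genes 22 changed their call with it, 15 with spike scaling and 47 of 328 with quantile normalization. Values under the noise bounds have no order, so a gene read in one tissue only has a lower limit of its fold.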

Other observations

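Antigen presentation was read in both tissues, in a group taken up after its values were seen. Of 22 measured H2 genes and B2m, 7 were above noise, with 3 shared, 1 higher in liver and 1 in white adipose. Over all genes 46.5% were shared, so the shared count is near that background. The class I genes H2-D1 (10783 in liver and 11637 in white adipose) and H2-K1 (14166 in liver and 7984 in white adipose) were shared like B2m. The class I gene H2-Q10 read 12885 in liver and 1795 in white adipose, 7.18-fold higher in liver. The class II genes leaned the other way: H2-Aa read 5685 in white adipose and 1274 in liver (4.46-fold), H2-Ab1 4091 in white adipose and 1130.0 in liver (3.62-fold) and H2-Eb1 6176 in white adipose and 2756 in liver (2.24-fold).

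Annexins, which bind membranes in the presence of calcium, were measured for 8 genes, also chosen after the values were seen. Of the 6 above noise 3 were higher in white adipose and 3 shared, beside 5.99% and 46.5% over all genes. Anxa2 read 10896 in white adipose and 467 in liver (at least 13.8-fold), Anxa1 5184 in white adipose and 476 in liver (at least 6.55-fold) and Anxa5 2642 in white adipose and 501 in liver (5.27-fold), while Anxa6 (6429 in liver and 10901 in white adipose) and Anxa7 (1935 in liver and 1766 in white adipose) were shared. Of 4 S100 proteins above noise, S100a6 was higher in white adipose (5365 in white adipose and 98.8 in liver, at least 18.2-fold), S100a4 (844 in liver and 763 in white adipose) and S100a10, the partner of Anxa2 (3809 in liver and 5614 in white adipose), were shared, and S100a13 had the larger value in liver (2371 in liver and 942 in white adipose, 2.52-fold). For beta-actin, probe sets gave opposite answers. The 3′, middle and 5′ control sets for Actb all read higher in white adipose on both chips, with log2 ratios of liver over white adipose from -2.53 to -3.74. The 3′ set read 2614 in liver and 17396 in white adipose on chip A. Only the set that carries its name among the members, of family design, went the other way. It read 6775 in liver and 1127 in white adipose, 6.01-fold higher in liver, so Actb is counted among the liver genes against its control sets.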
